A study of Mus musculus with 8 samples.

Results

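The miRNAs of the imprinted Dlk1-Dio3 region on mouse chromosome 12 were examined in kidneys with ischemia-reperfusion injury (IRI) and in kidneys of sham-operated mice. Members were taken by name, as every arm of 45 miRNA genes for which the array carries a probe. This gave 89 mature miRNAs of 1881 mouse miRNAs on the array, with 2 arms for 44 genes and 1 arm for 1 gene, Mir882. Any array gave a detected signal for 4 of the 89 members, and no array for the other 85, beside 25.4% of all mouse miRNAs with a detected signal. All 45 genes lie between Dlk1 and Dio3 in the RefSeq table of build GRCm38.p6, among 61 miRNA genes placed there.

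Each of the 8 samples was hybridised to 1 single-colour Agilent mouse miRNA array, with 4 samples in the IRI group (labelled 1, 2, 3 and 18) and 4 in the sham group (labelled 1, 2, 3 and 6). All mice were male C57BL/6 aged 9 weeks; no transgene or drug is named. In the IRI group the right kidney was removed and the left renal vessels were clamped for 25 or 45 min, and the kidney was taken 12 or 24 h later. Clamp and harvest times are not assigned to single samples in the labels. Sham mice received only a midline incision and kept both kidneys, so nephrectomy and injury cannot be told apart. The labels leave it unsaid whether the samples came from different animals; p-values therefore rest on the spread among these samples alone, which may be technical, and the number of arrays limits the precision.

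The Dlk1-Dio3 region is imprinted: the protein-coding genes Dlk1, Rtl1 and Dio3 are expressed from the paternal chromosome, while the noncoding RNAs Meg3, Rian and Mirg and the miRNAs are expressed from the maternal one. The miRNAs are cut from long noncoding transcripts, and those antisense to Rtl1 can direct cleavage of the paternal Rtl1 transcript. The cluster is known for high expression in embryo, placenta and adult brain, and for low expression in most other adult tissues.

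The mature sequences of the detected members are printed with their seed, bases 2 to 8, in capitals, since the seed is the part of a miRNA that chiefly selects its targets. They were taken from RefSeq (GRCm38.p6), which held 85 of the 89 members; miR-376c-3p, miR-485-5p, miR-487b-3p and miR-539-3p are named only. All are written 5′ to 3′, and all lie on the plus strand.
miR-494-3p: uGAAACAUacacgggaaaccuc
miR-370-3p: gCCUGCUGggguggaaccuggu
miR-134-5p: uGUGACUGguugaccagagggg

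The positions of these arms are chr12:109715367-109715388 for miR-494-3p, chr12:109618305-109618326 for miR-370-3p and chr12:109734145-109734166 for miR-134-5p. Mir370 lies within the noncoding gene Rian. Mir494 lies between Mir329 and Mir679, and no arm of either neighbour was detected. Mir487b lies between Mir381 and Mir539, and Mir134 between Mir382 and Mir668. No other mature mouse miRNA in the table carries the seed of miR-494-3p, miR-370-3p or miR-134-5p.

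The opposite arms of Mir494 and Mir370 and well-known members that were not detected are shown for comparison, with seeds again in capitals. miR-494-5p and miR-370-5p come from the same hairpins as detected arms. miR-127-3p is the best-known miRNA antisense to Rtl1, and miR-379-5p and miR-410-3p come from the ends of the long run of miRNA genes named after them.
miR-494-5p: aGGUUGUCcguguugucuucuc
miR-370-5p: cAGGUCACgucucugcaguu
miR-127-3p: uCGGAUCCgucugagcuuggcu
miR-379-5p: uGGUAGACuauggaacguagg
miR-410-3p: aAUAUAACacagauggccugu

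Among the 85 matched members, 3 seeds were shared by 2 members each. One of them joins an arm of Mir494 to an arm of Mir410, both undetected: miR-494-5p above and the following arm.
miR-410-5p: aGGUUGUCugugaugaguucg

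The undetected miR-329-3p has the same seed as miR-362-3p, whose gene is on chromosome X and which was detected on 8 of 8 arrays. They are printed together because the seed is identical while the remaining bases differ. The pair was picked after its detection was seen, from 5 such partners of undetected members.
miR-329-3p: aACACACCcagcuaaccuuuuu
miR-362-3p: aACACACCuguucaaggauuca

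Most of the cluster gave no detectable signal. A miRNA counted as detected where the scanner software marked it so, which requires its total signal to exceed 3 times its estimated error. By that mark 4 of 89 members (4.49%) were detected on at least 1 array, beside 25.4% of all mouse miRNAs on the array (478 of 1881). On all 8 arrays 3 members were detected: miR-494-3p, miR-370-3p and miR-487b-3p. The corresponding share of all mouse miRNAs was 16.9%. Where any spot had to be well above background on each of the 8 arrays the count was 2, and where 50% of the spots of a probe had to be, it was 1. Each sham array had 3 members detected, as had IRI 2, IRI 3 and IRI 18. IRI 1 had 4, the additional one being miR-134-5p. Over all mouse miRNAs, sham arrays had 327 to 379 detected and IRI arrays 393 to 447. The groups did not overlap in that total, whereas the cluster's count was the same on 7 of 8 arrays. Whether the total moved with the cluster count was not tested.

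Counted by gene, 41 of 45 genes had no detected arm and 4 had 1. All 4 detected arms were single: the opposite arm of each was below detection on every array. By position, the 9 genes within Rtl1 had 0 of 18 arms detected, the 2 genes within Rian had 1 of 4 (miR-370-3p), the 26 genes from Mir882 to Mir485 had 3 of 51, and the 8 genes within Mirg had 0 of 16.

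The signal of the 85 undetected members was set against the negative control spots, which carry no mouse miRNA probe. Signals here are background-subtracted spot intensities before any scaling, so a value below 0 is dimmer than the fitted background. The median over these members was -1.60 to -0.701 in sham and -1.49 to -0.827 in IRI. The negative control median was 2.24 to 3.68 in sham and 2.47 to 4.16 in IRI, and its 95th percentile 6.83 to 8.81 and 7.42 to 9.03. All 85 members had a median signal below that of the negative controls. For all 85, the brightest probe stayed under the 95th percentile of the negative controls on every array. That percentile is over single control spots, whereas a probe's value is a mean over repeat spots, which varies less. Of 19766 spots for these members over the 8 arrays, 0 were marked well above background. Undetected miRNAs of the whole array gave similar medians, -1.91 to -0.883 in sham and -1.60 to -0.693 in IRI. Since detection is itself set from signal, these values are a description. In bulk tissue, fewer cells of a type and less RNA per cell cannot be told apart, and a signal at background shows only that none was detectable at this sensitivity.

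**Figure D1:**
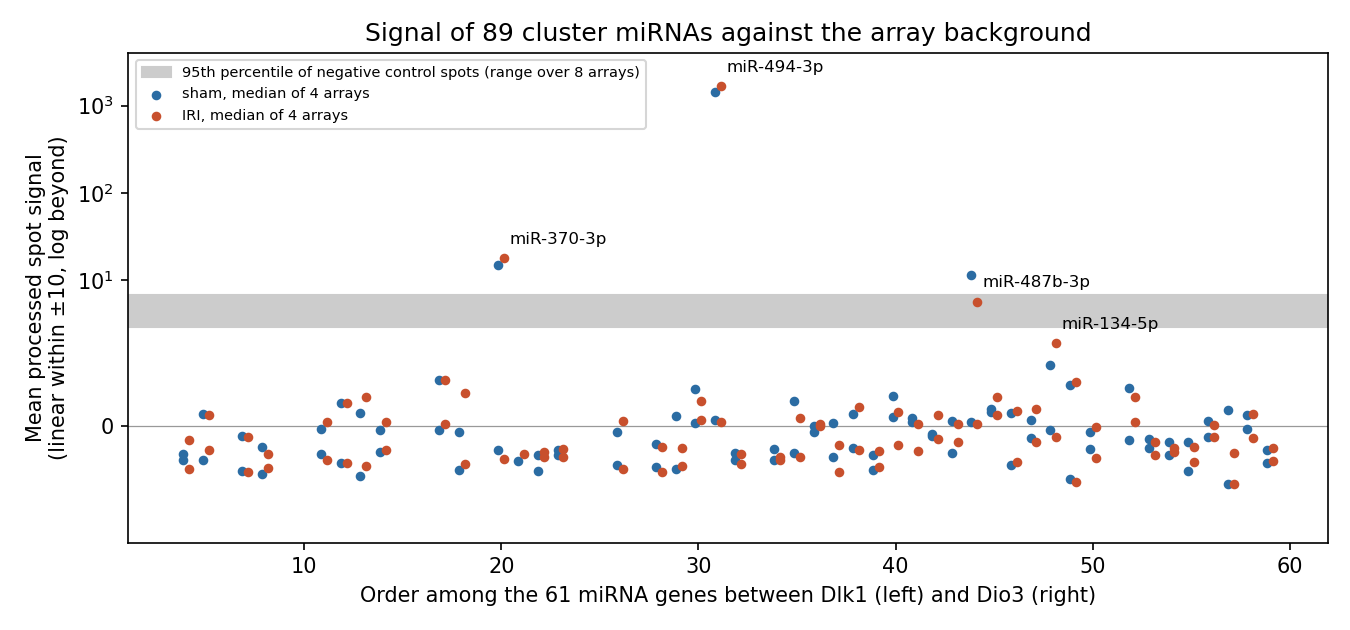
Spot signal of the cluster miRNAs by gene order along chromosome 12, each point the median over the 4 arrays of a group (linear axis within ±10, logarithmic beyond) and the grey band the 95th percentile of the negative controls over the 8 arrays. miR-494-3p stands far above the band and miR-370-3p just above it. miR-487b-3p lies above the band in sham (11.5) and within it in IRI (8.53). miR-134-5p and the 85 undetected members lie below it. Heights of different miRNAs are not to be compared because probes differ.

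Ranked by scaled signal summed over probes, the 6 highest undetected members were miR-668-3p, miR-433-5p, miR-136-5p, miR-539-5p, miR-329-3p and miR-154-5p; the sum grows with the number of probes, so the ranking only selects which are named. miR-668-3p had mean spot signals of 1.51 to 3.62 in sham and 1.78 to 5.37 in IRI. Its highest value was 0.723 times the 95th percentile of the negative controls on the same array. miR-136-5p, an miRNA antisense to Rtl1, had 1.56 to 3.89 in sham and 2.50 to 4.37 in IRI. The highest ratio to that percentile was 0.510 for miR-136-5p, 0.288 for miR-433-5p, 0.459 for miR-539-5p, 0.461 for miR-329-3p and 0.359 for miR-154-5p. These ratios are of the mean over all probes. The brightest of the 4 probes of miR-433-5p had a median signal of 5.13, by the median over arrays 1.62 above the negative control median.

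The arms most often studied were also at background. miR-127-3p, which is complementary to Rtl1, had 0.833 to 1.91 in sham and 1.34 to 2.47 in IRI. miR-379-5p had -3.32 to -1.16 in sham and -2.94 to -0.874 in IRI. miR-410-3p had -1.84 to -0.511 in sham and -1.81 to -0.449 in IRI. The groups overlapped for each of these. Wider spreads were seen for miR-376a-3p, at -3.06 to 3.16 in sham and -1.86 to -0.0073 in IRI, and for miR-376b-3p, at -1.11 to 3.99 in sham and -2.13 to 0.333 in IRI, all under the 95th percentile of the negative controls. The other arms of this set, miR-377-3p, miR-381-3p, miR-382-5p, miR-409-3p, miR-411-5p, miR-433-3p, miR-434-3p, miR-485-5p, miR-495-3p, miR-541-5p and miR-543-3p, were likewise detected on no array. Because these signals lie at background, no change between groups is given for them.

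miR-494-3p was the one member with strong signal. It is a miRNA that has been studied in ischemic kidney injury, with the stress-response factor Atf3 reported as a target. Its unscaled signal was 2885, 2877, 2654 and 3052 on sham arrays 1, 2, 3 and 6, and 3459, 3224, 3209 and 3664 on IRI arrays 1, 2, 3 and 18. On that scale the groups did not overlap, and every IRI array was above every sham array. Its mean spot signal was 153 to 230 times the 95th percentile of the negative controls, and 100% of its spots were well above background on every array.

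The arrays differed in overall brightness, so signals were scaled to each array's 75th percentile before the test, taken over the 317 miRNAs that all arrays detected. That percentile was 356 to 456 in sham and 445 to 562 in IRI. Scaled, miR-494-3p read 2835, 2927, 3210 and 3842 in sham and 2914, 2571, 3114 and 3691 in IRI. The groups then overlapped, with means of 3204 ± 454 (SD, n = 4) in sham and 3072 ± 469 (SD, n = 4) in IRI. The log2 change, IRI minus sham, was -0.062 ± 0.14 (SE; limma, 95% confidence interval -0.38 to 0.25, Benjamini-Hochberg adjusted p = 0.711). Without scaling the change was 0.24 ± 0.09 (95% confidence interval 0.03 to 0.45, limma adjusted p = 0.104). The sign thus turned with the scaling, and the threshold was not passed on either scale. Without scaling, 21.9% of all miRNAs tested had every IRI value above every sham value.

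miR-494-3p was read by a pair of probes, printed because the reading rests on them; both are complementary to its 3′ part.
probe of 14 bases: gaggtttcccgtgt
probe of 15 bases: gaggtttcccgtgta

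The shorter probe covers bases 9 to 22 of the miRNA and the longer one bases 8 to 22. No other mature or hairpin miRNA in the table holds a perfect match to either. The unscaled signal of the shorter probe was 1890 ± 110.1 (SD, n = 4) in sham and 2208 ± 147 (SD, n = 4) in IRI. The longer probe gave 977 ± 54.9 (SD, n = 4) and 1181 ± 70.2 (SD, n = 4). IRI means were thus 16.8% and 20.9% above sham means, in the same direction for both probes. Repeat spots of a probe on 1 array had median coefficients of variation of 3.71% and 3.08%.

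miR-370-3p was detected on all arrays but was dim. It is a miRNA for which the fatty acid oxidation gene Cpt1a has been reported as a target. Its unscaled signal was 32.1, 29.9, 26.0 and 29.6 in sham and 50.6, 35.3, 27.2 and 36.2 in IRI. IRI 1 was the highest and 3 of 4 IRI arrays were above every sham array, while IRI 3 lay among the sham values. Of its spots, 10 of 30, 6 of 27, 7 of 30 and 2 of 30 were well above background in sham, and 28 of 30, 17 of 30, 8 of 29 and 22 of 30 in IRI. Its mean spot signal was 1.50 to 3.41 times the 95th percentile of the negative controls.

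Scaled, miR-370-3p read 31.5, 30.4, 31.5 and 37.3 in sham and 42.6, 28.1, 26.4 and 36.5 in IRI. The IRI values spanned those of sham on both sides. Means were 32.7 ± 3.11 (SD, n = 4) in sham and 33.4 ± 7.58 (SD, n = 4) in IRI, and the log2 change was 0.0090 ± 0.16 (SE; limma, 95% confidence interval -0.36 to 0.38, adjusted p = 0.964). Unscaled, the change was 0.31 ± 0.18 (limma adjusted p = 0.254). The interval on the scaled values includes changes of either direction, so no direction is given for this miRNA.

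The probes of miR-370-3p are shown because only a share of their spots rose above background.
probe of 14 bases: accaggttccaccc
probe of 15 bases: accaggttccacccc

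Over all arrays, 26.7% of the spots of the shorter and 57.5% of those of the longer probe were well above background. The shorter probe read 12.6 ± 1.27 (SD, n = 4) in sham and 16.3 ± 4.15 (SD, n = 4) in IRI. The longer one read 16.8 ± 1.62 (SD, n = 4) in sham and 21.0 ± 5.79 (SD, n = 4) in IRI.

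miR-487b-3p was the member whose change passed the test, in the direction of lower signal in IRI. Its scaled signal was 29.4, 24.1, 27.3 and 20.5 in sham and 18.9, 13.4, 16.5 and 14.0 in IRI. Every IRI array was below every sham array, as held for 35.9% of all miRNAs tested. The means were 25.3 ± 3.91 (SD, n = 4) in sham and 15.7 ± 2.53 (SD, n = 4) in IRI. The log2 change was -0.51 ± 0.11 (SE; limma, 95% confidence interval -0.77 to -0.24, adjusted p = 0.00801). IRI 2, IRI 3 and IRI 18 were at or under the floor of 17.3 to which scaled values are raised before log2, so the change is not a measured size.

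The signal behind this call was close to background. On the unscaled scale miR-487b-3p read 30.0, 23.6, 22.6 and 16.3 in sham and 22.4, 16.8, 17.0 and 13.9 in IRI. These groups overlapped, and the change of -0.28 ± 0.16 did not pass the threshold (limma adjusted p = 0.251). That fit also raised dim values to a floor, the 5th percentile of detected unscaled signals, so -0.28 is not a measured size either. The parts of scaling and floor in the missing call were not tested. Spots well above background numbered 13 of 30, 7 of 29, 6 of 30 and 0 of 30 in sham, and 6 of 29, 2 of 29, 3 of 30 and 0 of 30 in IRI. The mean spot signal was 0.768 to 2.19 times the 95th percentile of the negative controls. Of its probes, the one of 17 bases had 0% of spots well above background and the one of 18 bases 31.1%. The unscaled means of the longer probe were 17.0 ± 3.54 (SD, n = 4) in sham and 13.1 ± 1.68 (SD, n = 4) in IRI.

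miR-134-5p, known in brain for acting on the dendritic spine regulator Limk1, was detected on IRI 1 alone. Its unscaled signal was 20.7, 7.42, 13.3 and 19.7 in sham and 43.3, 18.95, 15.5 and 26.2 in IRI. IRI 1 was the highest and the groups overlapped. Even there, 0 of 29 spots were well above background, and the mean spot signal of 10.8 was 1.46 times the 95th percentile of the negative controls, 7.42. It was not tested, because it was not detected on all 4 arrays of a group. All of its 4 probes are complementary to its 3′ end, and the shortest and the longest are printed because they show how little of the miRNA is read.
probe of 10 bases: cccctctggt
probe of 13 bases: cccctctggtcaa

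**Figure D2:**
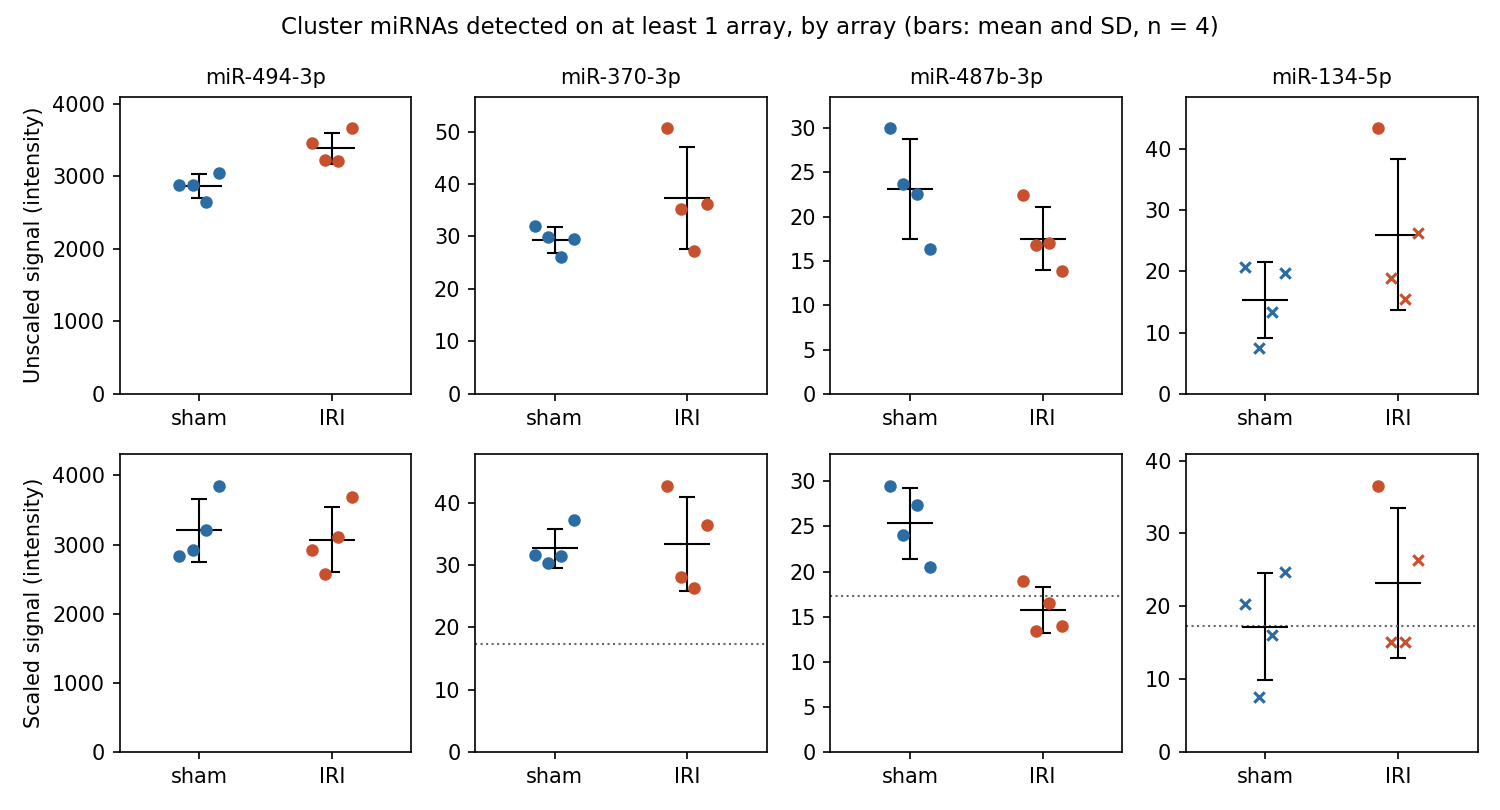
Unscaled (upper row) and scaled (lower row) signal of the 4 members detected on at least 1 array, by group, with mean and SD (n = 4) as bars; crosses are arrays without detection and the dotted line is the floor of 17.3. For miR-494-3p the groups separate unscaled and overlap scaled, and for miR-487b-3p 3 of 4 scaled IRI values lie under the floor.

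**Figure D3:**
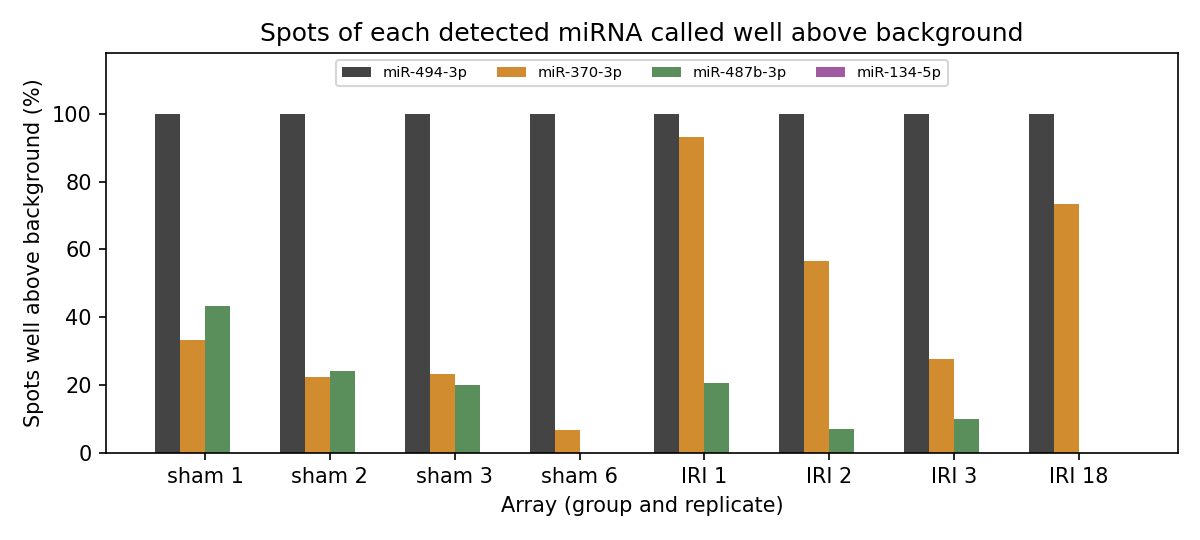
Percentage of spots marked well above background on each array for the 4 members detected on at least 1 array. miR-494-3p is at 100% throughout, miR-370-3p and miR-487b-3p vary between arrays, and miR-134-5p has 0% on every array and so shows no bars.

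In the fit over all 379 miRNAs tested, 1 of 3 tested members was lower in IRI and 0 were higher (limma, adjusted p threshold 0.05). Over all miRNAs tested, 36.7% were lower and 12.1% higher. The count for the cluster is too small to be read against that background. The median log2 change was -0.062 over the 3 tested members and -0.11 over all miRNAs tested. The 3 tested members passed the filter on dim miRNAs and do not stand for the rest of the cluster.

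The result for each tested member depended on how arrays were made comparable. Without scaling, the median change of all miRNAs tested moved from -0.11 to 0.17, and scaled to the labelling spike-in RNAs it was 0.19. Relative to that median, miR-487b-3p was at -0.39 scaled and -0.44 unscaled, and between -0.61 and -0.12 over 7 scalings. miR-370-3p was at 0.12 and 0.15 relative to the median, and miR-494-3p at 0.051 and 0.075. Over the 7 scalings miR-370-3p ranged from 0.012 to 0.15 and miR-494-3p from -0.0072 to 0.36, the highest with quantile normalization. miR-487b-3p was negative in all 7, but passed the threshold neither without scaling nor with spike-in scaling (limma adjusted p = 0.298). Both of these fits also raised dim values to a floor of their own.

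**Figure D4:**
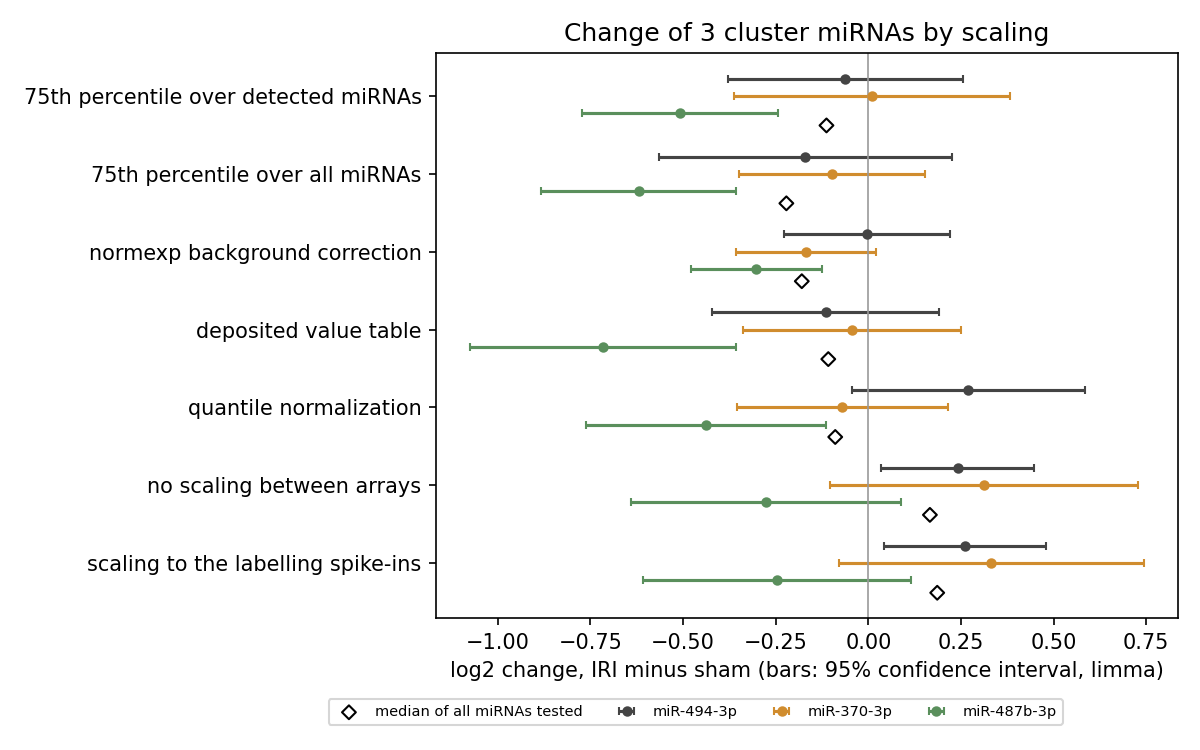
The log2 change, IRI minus sham, of the 3 tested members under 7 scalings, with 95% confidence intervals from limma and the median of all miRNAs tested as a diamond. miR-487b-3p lies below 0 in each row, at -0.28 without scaling, whereas miR-494-3p and miR-370-3p change sign between rows.

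The arrays shared 1 slide and 1 scan. Row 1 of the slide held the sham group and row 2 the IRI group, so slide row and group cannot be told apart, whereas the 4 columns each paired a sham with an IRI array. Within columns 1 to 4 the scaled difference of miR-487b-3p, taken after the floor, was -0.64, -0.48, -0.66 and -0.25. Its IRI values in columns 2 to 4 were at the floor, so these are not measured sizes. Every scaled IRI value was below every sham value, so each column had to be negative. For miR-494-3p the scaled difference was 0.04, -0.19, -0.04 and -0.06, and for miR-370-3p 0.43, -0.11, -0.26 and -0.03. Unscaled and without a floor, all 4 columns were negative for miR-487b-3p (-0.49 to -0.23) and positive for miR-494-3p (0.16 to 0.27). For miR-494-3p this was fixed too, because every unscaled IRI value was above every sham value. How many of all miRNAs had the same sign in all 4 columns was not counted.

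The other miRNA genes of the region that the name rule does not cover gave 27 further mature miRNAs. Some signal was found for 4 of the 27 (14.8%), and 3 were tested, with 0 higher and 0 lower. miR-1906, which is also listed at another gene on chromosome X, changed by -0.18 ± 0.10 (SE; limma adjusted p = 0.188). miR-3070-2-3p was at 0.27 ± 0.24 and miR-3072-5p at 0.13 ± 0.14 (limma adjusted p = 0.392 and 0.435). miR-3544-3p was detected on 2 sham arrays and 1 IRI array. Whether these shares differ from that of the 89 members was not tested.

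Among 10 miRNA arms of other imprinted loci, 5 were detected on at least 1 array, 3 were tested and 1 was higher in IRI. That miRNA, miR-483-5p, lies in an intron of Igf2, the insulin-like growth factor gene. Its scaled signal was 48.5 to 67.8 in sham and 64.3 to 113 in IRI, so that the groups overlapped, with a log2 change of 0.71 ± 0.19 (SE; limma adjusted p = 0.0170). With normexp background correction, which adds an offset of 50 to each spot, it was at -0.0092 (limma adjusted p = 0.932). Without sham 3 it was at 0.65 with a limma adjusted p of 0.0528, past the threshold no longer. miR-675, cut from the noncoding RNA H19, had neither arm detected.

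Kidney identity was clear in all samples: 5 of 5 tubule miRNAs, among them miR-192-5p and miR-194-5p, were detected on all arrays. Their summed scaled signal was 17412 to 20068 in sham and 12614 to 14273 in IRI, and 5 of 5 were lower. Because the cluster is known from nervous tissue, its miRNA markers were examined too. Of 6, 4 were detected: miR-9-5p, miR-128-3p and miR-219a-5p on all arrays, and miR-9-3p on 1 sham and 4 IRI arrays. The other members of this list, miR-124-3p and miR-137-3p, which are enriched in neurons, were detected on 0 arrays. The summed signal of the list was 111 to 133 in sham and 90.0 to 124 in IRI, and 2 of 4 tested were lower. Fibroblast and mural miRNAs were all detected (5 of 5, 2 lower, 1885 to 2085 in sham and 1152 to 1781 in IRI). Endothelial miR-126a-3p was lower (4476 to 5165 against 3723 to 4186). Myeloid miRNAs rose in 1 of 2 (380 to 523 against 598 to 865) and red blood cell miRNAs in 3 of 3 (43.0 to 902 against 2940 to 4087). Muscle miRNAs had 1 of 2 detected, miR-1a-3p, and it was lower (21.4 to 29.2 against 13.6 to 19.5). The liver miRNA miR-122-5p gave a detected signal on 1 array, in the IRI group. Over all miRNAs tested, 36.7% were lower and 12.1% higher. Of the 21 marker miRNAs tested, 11 were lower and 4 higher; unscaled, and with spike-in scaling, 4 were higher and 0 lower (limma, with 2 lower at an unadjusted p under 0.05 in either case). The part of these cell types in the value of miR-487b-3p was not tested.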

How the data were processed

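Total RNA from 30 mg of kidney was used, 100 ng per array, per the labels' protocols. The deposited files give linear intensity per spot from Agilent Feature Extraction 12.0.3.1 (named in the submitters' processing notes), with a fitted background surface subtracted and no scaling between arrays, per the file headers. The probe annotation uses build mm9, in which 170 of 234 member probes are placed on chromosome 12. A value table deposited by the authors gives 1 linear ratio for each miRNA, in which a higher ratio means more signal; its scaling and centring are not given in the sources used here. Its column medians were 0.859, 1.23, 1.29 and 1.30 for sham and 0.658, 0.646, 1.16 and 0.749 for IRI, and it served only as an alternative.

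Outlier spots, 1422 to 1560 per array, were dropped and 0 spots were saturated. Signals were averaged per probe and summed per miRNA, divided by each array's 75th percentile over the 317 miRNAs that all 8 arrays detected, multiplied by these percentiles' geometric mean, floored at 17.3 (5th percentile of detected signals) and taken to log2. The 379 miRNAs detected on all 4 arrays of a group entered limma (version 3.58.1, R 4.3.3), with lmFit, eBayes, two-sided tests and a Benjamini-Hochberg adjusted threshold of 0.05. The fit was tested on simulated data. Named miRNAs are all members detected on an array, the 6 undetected with the highest summed scaled signal, and 18 well-studied arms. Members, lists and alternatives were chosen with earlier results of these data known. Alternatives covered scaling, background correction, value per miRNA, filter, floor, variance model, blocks, detection calls and leaving out each array. Alternative scalings had a floor set the same way from their own values, except normexp and the deposited table, which had none. The normexp correction added an offset of 50 to each spot. Gene order came from RefSeq GRCm38.p6; a genome of build mm9 was not used here.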

Additional observations from a re-analysis of the deposited data

Results flagged for a closer look

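Within-group gaps were examined for 20 groups of 4 arrays, and 2 were marked as holding an array far from the others; chance marks about 1 in 20. The scaled signal of miR-370-3p on sham 6 was 37.3, against 30.4 to 31.5 on the other sham arrays; its unscaled signal there, 29.6, lay among the others. On IRI 1, 4 cluster miRNAs were detected against 3 on each other IRI array, the addition being miR-134-5p. A count equal on the other arrays is marked whenever 1 array differs, so the rate of 1 in 20 does not apply to it.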

How the results depend on the processing

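Over 23 alternatives miR-487b-3p kept its call in 19, and miR-494-3p and miR-370-3p were called in 0. The count of members lower in IRI was 0 without scaling, with spike-in scaling, with no filter on dim miRNAs (adjusted p of miR-487b-3p 0.0744) and with the floor at 2 times its value, which leaves all its values at the floor. Leaving out each array in turn gave 1 to 1 lower and 0 to 0 higher, with changes of -0.60 to -0.43 for miR-487b-3p, -0.12 to 0.11 for miR-370-3p, -0.15 to 0.028 for miR-494-3p and 0.61 to 0.88 for miR-483-5p. The sign of miR-370-3p turned to -0.099 where all miRNAs set the percentile, -0.070 after quantile normalization, -0.17 with normexp and -0.044 in the deposited table. That of miR-494-3p turned to 0.24 without scaling, 0.27 with quantile normalization and 0.26 with spike-in scaling. miR-483-5p turned to -0.0092 with normexp and was not called with no filter (adjusted p = 0.168). The offset of 50 that normexp adds to each spot exceeds every mean spot signal of miR-370-3p and miR-487b-3p. The cause of these turns was not tested. Over all miRNAs, 46 higher and 139 lower became 53 and 1 without scaling, 72 and 2 with spike-in scaling, 22 and 164 with normexp, and 21 and 90 with no filter.

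No label says whether equal replicate numbers pair samples, and the values do not settle it. Deviations of equal numbers correlated at -0.16, -0.20 and 0.24. Arrays numbered 1 and 2 matched each other's number best, whereas sham 3 and IRI 3 matched each other best. Equal numbers 1, 2 and 3 also shared slide columns 1, 2 and 3. With the replicate block, which keeps only numbers 1, 2 and 3, 17 miRNAs were higher and 50 lower; 1 member, miR-487b-3p, was lower (-0.59 ± 0.08, limma adjusted p = 0.0454) and 0 were higher, and miR-483-5p was not called (adjusted p = 0.0537). Members detected numbered 3 where 50% of a probe's spots, or any spot, had to be well above background (1 and 2 on all 8 arrays). The one lost was miR-134-5p. By the 95th percentile of the negative controls 4 were detected. The brightest probe of miR-134-5p passed that percentile on 2 arrays, sham 1 and IRI 1. Dim signal limits miR-370-3p and miR-487b-3p.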
